A study of Tilletiopsis washingtonensis and Meira miltonrushii with 14 samples.

Results

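The 240 genes described here are those of *Meira miltonrushii* whose transcripts were read much more often in yeast growth than in filamentous growth. They were chosen from the deposited normalized read counts, in which each library's raw counts are divided by 1 size factor. A gene was a member when its mean over the 3 yeast libraries was at least 500, when that mean plus 1 was at least 4 times the filamentous mean plus 1, and when its lowest yeast library lay above its highest filamentous library. The 240 members are 3.24% of the 7400 *M. miltonrushii* genes with any read and 6.35% of the 3779 genes with a yeast mean of at least 500. The series lists 14463 genes over its 2 species. Because the difference between growth forms chose the members, every value of that difference below is a description and not evidence for it.

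*M. miltonrushii* strain MCA 3882 (CBS12591) was represented by 3 filamentous and 3 yeast libraries of poly(A)+ RNA from bulk fungal biomass. Filamentous growth was in Holliday's minimal medium with 1% Tween40, a detergent made from the fatty acid palmitic acid, and yeast growth was in the same medium with 1% glucose. Both forms came from a 7-day preculture in potato dextrose broth and were harvested after 3 days at 25 °C. The labels name no engineered allele, all libraries of the species came from the 1 strain, and growth form and carbon source changed together, so their parts in any difference cannot be told apart. The other species of the series, *Tilletiopsis washingtonensis* strain MCA 4186 (NRRL Y-63783), was grown under the same 2 conditions, with 4 libraries per form.

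*Meira* is a genus of the Ustilaginomycotina, the group of basidiomycete fungi that also holds the smuts. Many of these fungi are dimorphic: they divide by budding as single yeast cells or extend as filaments, and in the corn smut *Ustilago maydis* fatty acids supplied as the carbon source bring on filamentous growth in culture. Glucose is the preferred carbon source of most yeasts, and in *Saccharomyces cerevisiae* its presence raises genes for sugar uptake and fermentation and represses genes for the use of other carbon sources. Which of these functions the 240 members hold is not known here, since the tables give *M. miltonrushii* genes as bare protein identifiers and pair none with a name, product or sequence. For the same reason the labelled growth forms were not checked against marker genes. Gene lengths are not given either, so a rank by read count below ranks reads and not transcripts per length.

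Counts assigned to genes were 7.29 M to 15.8 M in the filamentous and 11.5 M to 17.1 M in the yeast libraries of *M. miltonrushii*. Replicate pairs of 1 form differed by more than sampling noise in every case, with a chi-square per degree of freedom of 16.7 to 114, so all 6 libraries were kept as separate samples. The labels number the replicates without stating that each was its own culture, and the spread between them may be technical. In bulk cultures fewer cells with a transcript and less of it per cell cannot be told apart.

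The members together made up a small part of the filamentous transcriptome and a larger part of the yeast transcriptome. They held 0.923%, 0.833% and 0.914% of gene counts in the filamentous libraries, against 8.15%, 7.20% and 7.80% in the yeast libraries. The means were 0.890% ± 0.0494 in filamentous and 7.71% ± 0.482 in yeast growth (SD, n = 3 each), a difference of -6.82 percentage points, whose direction the rule fixed. All genes that edgeR called lower in filamentous growth took 12.8% ± 0.380 of filamentous and 38.6% ± 1.196 of yeast gene counts, and the difference of the 240 members was 26.4% as large as theirs. For a fixed set of genes, a share within a library does not depend on how libraries are scaled to each other. The choice of the members does depend on that scaling.

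**Figure D1:**
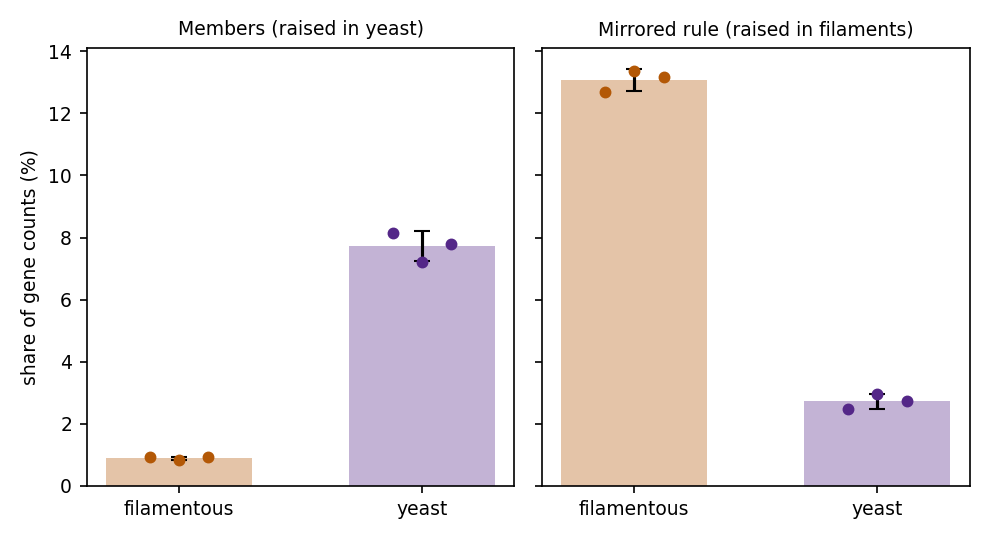
Share of all gene counts (%) held by the 240 members (left) and by the 262 genes of the mirrored rule (right) in filamentous and yeast libraries of *M. miltonrushii*; bars are means, error bars 1 SD and points the 3 libraries of each form. The members lie between 0.833% and 0.923% in filamentous and between 7.20% and 8.15% in yeast libraries.

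Turned round, the same rule gave 262 genes raised in filamentous growth, 7.18% of the 3648 genes with a filamentous mean of at least 500. Their share of gene counts was 13.1% ± 0.360 in filamentous growth and 2.72% ± 0.234 in yeast growth (SD, n = 3 each). Both sets were chosen on the same contrast, so the 2 pairs of shares are set side by side with no test.

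Over the members the median normalized count was 235, 227 and 256 in the filamentous libraries, against 1781, 1509 and 1712 in the yeast libraries. The other 3539 genes with a yeast mean of at least 500 had medians of 1256, 1255 and 1275 in filamentous and 1121, 1171 and 1189 in yeast libraries. By these medians the members lay above the other genes that passed the same limit in yeast growth, and below them in filamentous growth. The 2 sets overlapped, since 75 members had a yeast mean under 1000. A low filamentous level is partly built in by the ratio limit. By mean normalized count their median rank among all 7400 genes was 4850 in filamentous and 1331.5 in yeast growth. Of the 100 genes with the most reads, 0 were members in filamentous and 11 in yeast growth; of the 500 with the most reads, 0 and 62 were; and of the 1000 with the most reads, 4 and 96 were. The best rank of any member was 537 in filamentous and 19 in yeast growth.

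**Figure D2:**
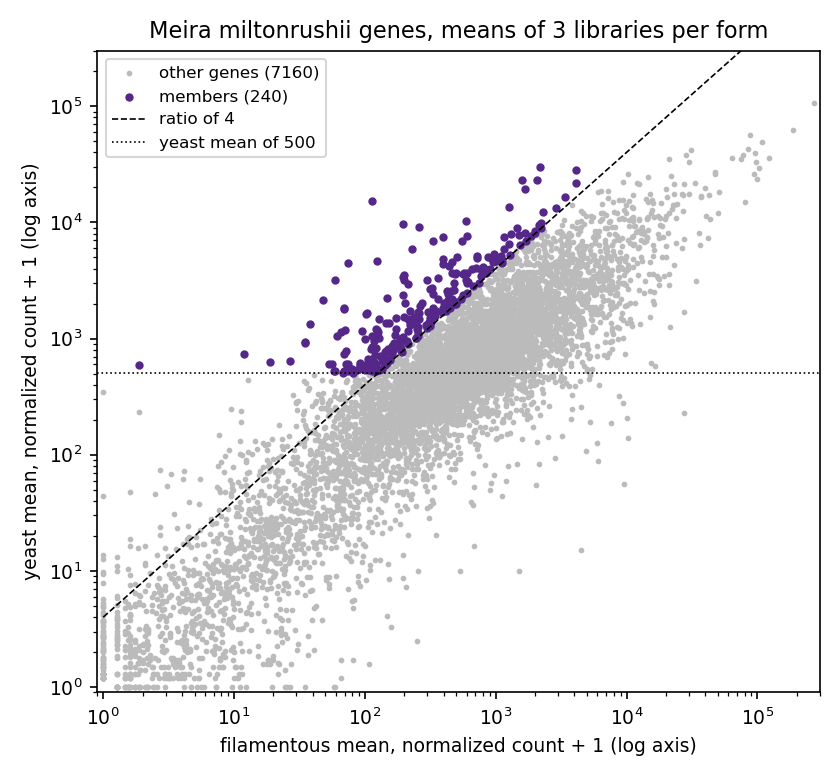
Mean normalized count plus 1 of each *M. miltonrushii* gene in filamentous (x axis) and yeast (y axis) growth, both on log axes, over 3 libraries per form. The 240 members lie above the dotted line at a yeast mean of 500 and on or above the dashed line at a ratio of 4, and 173 of them have a ratio under 8.

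Nearly all members were still read in filamentous growth. Their filamentous means ran from 0.883 to 4098 normalized counts with a median of 244, and 67 of the 240 were at or above the median of all genes, 487. Filamentous means were below 100 for 37 members and below 50 for 8. The single member value of 0 among the 720 filamentous values belonged to protein 161864, and the other 239 members had filamentous means of at least 11.0. Raw counts over the 3 filamentous libraries were under 100 for 7 members, and no member had fewer than 1936 counts over the 3 yeast libraries.

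Most members had a ratio under 8, where the rule asked for at least 4. The ratio of the yeast mean to the filamentous mean, each with 1 added, had a median of 5.70, and 25% of members were below 4.62. It was 4 to under 8 for 173 members, 8 to under 16 for 41, 16 to under 32 for 15, 32 to under 64 for 9, and above 64 for 2. In the group of 173 the median filamentous mean was 304 and the median yeast mean 1661. In the group of 41 these medians were 152 and 1655, in the group of 15 they were 69.5 and 1837, and in the group of 9 they were 58.0 and 3178. The median yeast level was much the same across the 3 lower groups and higher in the group of 9. The groups were cut on the ratio, so a filamentous level that falls from group to group is largely built in.

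Genes on either side of the limits had nearly the same values. The 2 members closest to the ratio limit had ratios of 4.01 and 4.02, with means of 134 ± 28.5 in filamentous and 541 ± 151 in yeast growth for the first of them (SD, n = 3 each). The 2 genes just outside it had ratios of 3.99 and 3.97, with means of 248 ± 66.2 in filamentous and 993 ± 257 in yeast growth for the first. At the limit on level, the 2 lowest members had yeast means of 505 and 508, and 2 genes with ratios of 11.9 and 4.26 stayed out at yeast means of 489 and 488. With the limit on level at 100 the set held 342 genes. The condition that the forms do not overlap removed 0 genes, since all 240 genes that met the other conditions also met this one. At a ratio of at least 2 in place of 4, 843 of 852 genes met it.

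The number of members depended on how libraries were scaled. With TMM-scaled counts, another scaling that sets the bulk of genes equal, 231 genes met the rule, all of them among the 240. With library size alone 428 genes met it, the 240 among them, because that scaling moves the median log2 change of all genes by -0.39. Changes are given below relative to the deposited or TMM scaling, both of which hold the median gene near 0.

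edgeR's quasi-likelihood test was run over the 6778 genes that passed its filter on low counts, and all 240 members passed that filter. With a Benjamini-Hochberg adjusted p under 0.05, 32.7% of the genes tested were called lower in filamentous growth, and 239 of the 240 members were. Lower by at least 4-fold were 5.87% of the genes tested and 231 of the members. These counts restate the rule, which used the same libraries, and nothing is read from them. The log2 fold change, filamentous over yeast, ran from -9.30 to -1.99 over the members with a median of -2.50, beside a median of -0.00015 over all genes tested. Its standard error had a median of 0.19 over the members and 0.18 over all genes tested.

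Protein 161864 had the largest ratio of the set, 314.5. It had 1.82, 0.830 and 0 normalized counts in the filamentous libraries, against 591, 598 and 585 in the yeast libraries. Yeast libraries agreed closely on it, with a coefficient of variation of 1.08%, the lowest of all members, while the filamentous values rest on 2 reads in all. Its 2 filamentous and 2329 yeast reads put yeast over filamentous growth at 731-fold. From counting error alone, the exact binomial 95% interval runs from 202 to 6043. In yeast growth it was a gene of moderate read count, at rank 212 of the 240 members. Its log2 fold change, filamentous over yeast, was -9.30 (SE 0.36) and ranged from -9.86 without filamentous replicate 1 to -5.79 with limma-trend and a pseudocount of 10. This SE was derived from the F of the test. It is too small beside the counting interval above, so it understates the error left by 2 filamentous reads.

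The member with the next largest ratio, 135, combined a very high yeast level with a low filamentous one. It had 153, 111 and 73.7 normalized counts in filamentous libraries, against 15582, 16995 and 13555 in yeast libraries. It ranked 8 of 240 by yeast reads and 62 among all genes in yeast growth, and 5637 among all genes in filamentous growth. Of the 11 members with a ratio of at least 32, it alone was also among the 10 members with the most yeast reads. Its log2 fold change, filamentous over yeast, was -7.09 (SE 0.27).

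The remaining 9 members with a ratio of at least 32 had very different yeast means, from 623 to 9661. The one at rank 3 by ratio had 12.7, 17.4 and 2.78 normalized counts in filamentous libraries, against 772, 699 and 722 in yeast libraries. The one at rank 4 had 87.4, 63.0 and 68.1 in filamentous libraries, against 4370, 4939 and 4147 in yeast libraries. The one at rank 6 had 200.2, 183 and 196 in filamentous libraries, against 10046, 8198 and 10740 in yeast libraries. In each of the 3 the lowest yeast library was more than 30 times the highest filamentous library, and the filamentous libraries of the gene at rank 3, which rest on 30 reads, were the least even. The members at ranks 7 and 10 had filamentous means of 47.3 ± 8.44 and 260 ± 53.5, against yeast means of 2163 ± 47.2 and 9113 ± 1295 (SD, n = 3 each).

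**Figure D3:**
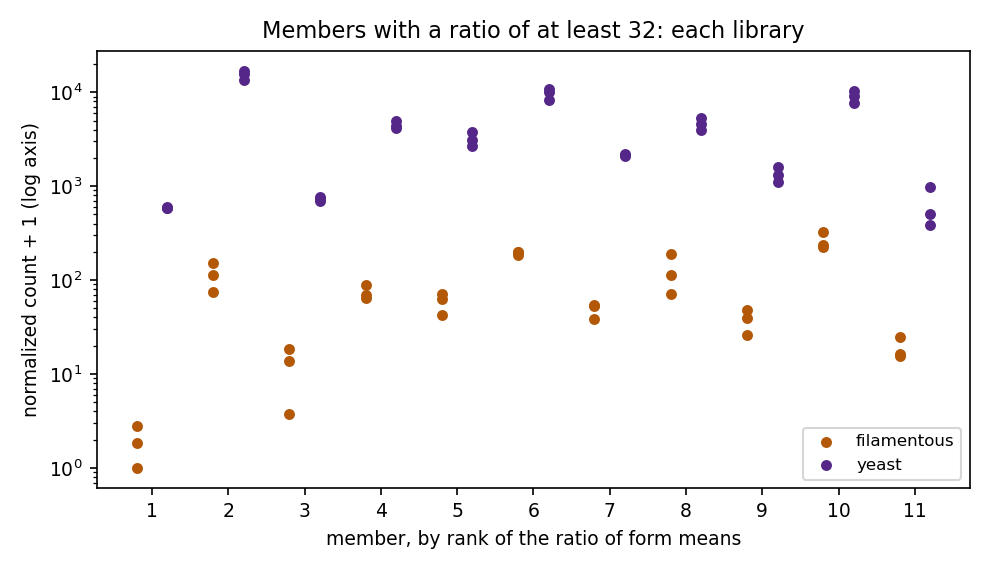
Normalized count plus 1 (log axis) in each filamentous and each yeast library for the 11 members with a ratio of at least 32, ordered by rank of that ratio. The filamentous and yeast points of each member are well apart, and the filamentous points of ranks 1 and 3 are the most spread.

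The members with the most yeast reads were mostly not those with the largest ratios. Protein 119419 had the highest yeast mean. It had 2032, 2400 and 2122 normalized counts in filamentous libraries, against 46707, 22279 and 20273 in yeast libraries. The forms were far apart in every library, but the yeast mean of 29753 ± 14717 (SD, n = 3) was carried by yeast replicate 1, and without that library its ratio was 9.73 in place of 13.6. Its log2 fold change, filamentous over yeast, was -3.75 (SE 0.33), and it was -3.28 (SE 0.14) without yeast replicate 1. It ranked 1076 in filamentous and 19 in yeast growth among all genes. Without yeast replicate 1 its yeast mean was 21276, below the 22852 of the member at rank 2 by yeast reads.

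The 10 members with the most yeast reads had a share of gene counts of 0.178% ± 0.0239 in filamentous growth and 1.99% ± 0.368 in yeast growth (SD, n = 3 each). With raw counts summed over the libraries of each form, these 10 held 19.7% of all member counts in filamentous and 26.4% in yeast growth. Their ratios ran from 4.60 to 135. The member at rank 2 by yeast reads had 5512, 3267 and 3488 normalized counts in filamentous libraries, against 38426, 26472 and 19231 in yeast libraries. The member at rank 3 had 1578, 1636 and 1541 in filamentous libraries, against 30183, 21107 and 18711 in yeast libraries. Both were highest in yeast replicate 1 and lowest in yeast replicate 3, and so were those at ranks 4, 5 and 10. Yeast replicate 1 was the highest yeast library for 8 of the 10. All 10 met the rule without that library as well, with ratios of 4.12 to 134.

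The yeast mean enters the ratio and the rule set limits on both, so the ratios of members at different yeast levels are given as values only. A ratio of at least 8 was held by 16 of 75 members with a yeast mean of 500 to under 1000 (21.3%), by 44 of 153 with 1000 to under 10000 (28.8%), and by 7 of 12 with at least 10000 (58.3%). The median ratios of the 3 groups were 5.45, 5.71 and 10.9. Of the 12 members in the last group, 9 were highest in yeast replicate 1, and the part of that library in these values was not tested.

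The rule does not use the order of libraries within a form. It does use the form means and the extreme libraries, so the spread of the members is not independent of it. Members had a higher median spread among replicates than the other genes with a yeast mean of at least 500. The median coefficient of variation over 3 libraries was 15.0% in filamentous and 17.3% in yeast growth for the members, and 8.47% in filamentous and 13.7% in yeast growth for the other 3539 genes. In filamentous growth the members also had far fewer reads than those genes (medians of 235 and 1256 normalized counts in filamentous replicate 1), and the part of read number in the wider spread was not tested. In yeast growth the members had more reads than those genes (medians of 1781 and 1121 normalized counts in yeast replicate 1). The part of single high yeast libraries in the yeast spread was not tested. Yeast libraries varied more than filamentous ones for 134 of 240 members (55.8%) and for 2505 of the other 3539 genes (70.8%). Genes share libraries and are not replicates, so these shares are given with no test.

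Yeast replicate 2 was the highest yeast library for few members and the lowest for many. Replicate 1 was the highest yeast library for 95 members (39.6%), replicate 2 for 24 (10.0%) and replicate 3 for 121 (50.4%). Among the other 3539 genes these shares were 35.7%, 22.9% and 41.5%. Replicate 2 was the lowest yeast library for 105 members (43.8%), against 26.0% of the other genes. Its median log2 deviation from the yeast mean was -0.10 over the members and 0.0039 over the other genes, and its share of counts held by members, 7.20%, was also the lowest of the 3 yeast libraries. It lay between replicates 1 and 3 for 111 of the 240 members and for 1811 of the other 3539 genes.

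Members differed in how replicates 1 and 3 compared. Yeast replicate 1 was at least 1.5 times replicate 3 for 33 members (13.8%), and replicate 3 was at least 1.5 times replicate 1 for 30 (12.5%). The other genes gave 9.72% and 10.5%. The 33 members had median normalized counts of 280, 250 and 298 in filamentous libraries, against 2512, 1641 and 1316 in yeast libraries, and they held 24.0% of all member counts in yeast growth. The 30 members had medians of 155, 141 and 170 in filamentous libraries, against 744, 871 and 1191 in yeast libraries, and they held 4.48%. Both shares are of raw counts summed over the yeast libraries, so replicate 1, the deepest of them, weighs most. The filamentous medians of each group lay close together, and the remaining 177 members had yeast medians of 1968, 1863 and 2009. These groups were made from the values themselves and are a description of the yeast libraries only.

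**Figure D4:**
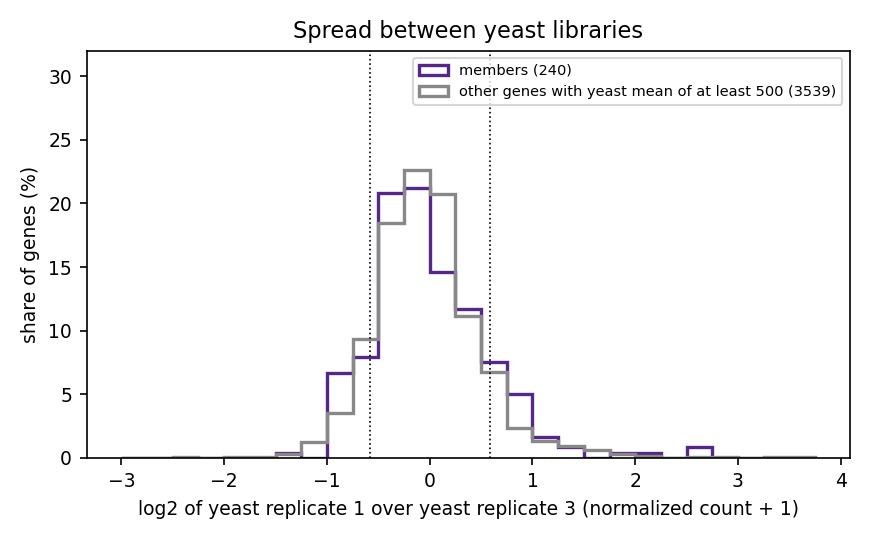
Distribution of the log2 ratio of yeast replicate 1 to yeast replicate 3 over the 240 members and over the other 3539 genes with a yeast mean of at least 500, as a share of genes (%) per bin of 0.25. Dotted lines mark a ratio of 1.5 in either direction; 13.8% of members lie beyond the right line and 12.5% beyond the left line.

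Some members depended on a single library for their place. All 6 members with a coefficient of variation over 50% in yeast growth were highest in that library, and 1 of the 6 met the rule without it. Protein 162483, singled out after its values were seen, was the most uneven member and the only one not called by edgeR (adjusted p = 0.051). It had 1265, 1015 and 999.97 normalized counts in filamentous libraries, against 10619, 3068 and 1652 in yeast libraries. The forms did not overlap, but its ratio was 4.67 with all libraries and 2.16 without yeast replicate 1. In all, 27 members no longer met the rule without yeast replicate 1, and 21 other genes then did. Without yeast replicate 3, 25 members were lost and 13 genes gained, and without yeast replicate 2 the numbers were 6 and 21. Without filamentous replicates 1, 2 and 3, 10, 18 and 10 members were lost and 10, 4 and 12 genes gained.

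Choosing members without a library shows where that library placed genes chosen without its values. The deposited size factors were kept as they were, and the library left out may have had a part in them. Chosen without filamentous replicate 1, 2 or 3, the set held 240, 226 or 242 genes. In the filamentous library left out, 240, 225 and 242 of them lay below all yeast libraries, and 85.4%, 94.7% and 84.3% lay at least 4-fold below the yeast mean. Chosen without yeast replicate 1, 2 or 3, the set held 234, 255 or 228 genes. In the yeast library left out, every one of these genes lay above all filamentous libraries, and 77.4%, 80.0% and 85.1% of them lay at least 4-fold above the filamentous mean, with median ratios of 5.72, 5.11 and 5.88. The 3 libraries of the other form had chosen these genes in each case, so the counts describe the library left out and are no independent test of the difference between forms.

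The rule required a gap between the closest libraries of the 2 forms, and its size varied among members. The lowest yeast library was at least 2 times the highest filamentous library for 238 members and at least 4 times for 125, with a median of 4.09. The smallest gap, 1.31 times, was that of protein 162483.

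In *T. washingtonensis* the same rule gave 162 of 6999 genes, applied to 4 filamentous and 4 yeast libraries. Their share of gene counts was 0.890% ± 0.0326 in filamentous growth and 6.54% ± 0.0674 in yeast growth (SD, n = 4 each). The corresponding shares of the 240 *M. miltonrushii* members were 0.890% ± 0.0494 and 7.71% ± 0.482 (SD, n = 3 each). Genes were not matched between the species, the size factors were made separately in each, and the shares come from sets chosen by the same values, so the difference was not tested.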

How the data were processed

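The tables deposited by the authors hold raw read counts per protein identifier and a normalized signal, the count divided by 1 size factor per library. Within a library the ratio of both was the same for all genes, to a relative deviation of 9.8e-15. DESeq2 1.20.0, HTSeq 0.7.0, TopHat2 2.1.1 and cutadapt 1.13 appear, with no role stated, in the submitters' processing notes. Each of genome build, annotation and strand setting is not given in the sources used here, so overlapping or near-identical genes may share or lose reads. Per the labels, libraries were made with a TruSeq mRNA kit.

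In *M. miltonrushii* 81.8% to 84.2% of listed reads fell on genes. Reads with no feature were 14.3% to 16.2% and multiply aligned reads 1.55% to 2.01%; these lines stayed out of library sizes and tests. One deposited read is worth 0.621 to 1.82 normalized counts. The members and all lists were chosen with earlier results of these data known.

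Raw counts were tested with edgeR 4.0.16 in R 4.3.3 (filterByExpr, TMM, robust quasi-likelihood fit on growth form, Benjamini-Hochberg over all genes tested, threshold 0.05). The SE is the absolute log2 fold change over the square root of F. The fit was checked on data simulated with the same spread for every gene, so genes with uneven replicates were not covered. The required recovery of the smaller changes was lowered after a first run missed it. Alternatives used DESeq2 1.42.0 and limma 3.58.1. Members were named by identifier only for the largest ratio and the highest yeast mean; protein 162483 was added after its values were seen. Product groups and counterparts in *T. washingtonensis* need names or sequences and were not run. Python 3.11.15, pandas 2.3.3 and matplotlib 3.10.9 were used for the rest.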

Additional observations from a re-analysis of the deposited data

How the results depend on the processing

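The number of members was 240 with the deposited scaling and 428 with library size alone, 231 with TMM-scaled counts, 231 with a pseudocount of 10, 342 with a yeast mean of at least 100 and 240 with the no-overlap condition dropped. Leaving out each library in turn gave 226 to 255 members. Over the 13 other fits (RLE factors, library size alone, no filter, DESeq2, limma-trend with a pseudocount of 1 or 10, the replicate block and each library left out), 239 to 240 members were called lower in filamentous growth. The median log2 fold change of the members was -2.50, and -2.88 with library size alone, by which scaling the median of all genes moved by -0.39; the other 12 fits gave -2.58 to -2.45. Leaving out each library in turn moved the members' share of gene counts to 0.874% to 0.919% in filamentous and 7.50% to 7.97% in yeast growth. Without the 10 members with the most yeast reads, a setting chosen after seeing the data, it was 0.712% in filamentous and 5.72% in yeast growth, by construction.

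The replicate block gave 239 members called lower and a median log2 fold change of -2.47. Same-numbered libraries of the 2 forms deviated together with correlations of 0.26, -0.11 and 0.20 for replicates 1, 2 and 3, and the labels do not say what a number stands for. These are the numbers of the sample titles; the labels of the deposited columns carry other numbers, of which the forms share only that of replicate 2. So the numbers were not taken as pairs; filamentous replicate 2 correlated best with yeast replicate 3, at 0.066. The log2 fold change of protein 119419 was between -4.12 and -3.28 and that of protein 161864 between -9.86 and -5.79 over the 13 other fits, each called in every one. The matching alternatives for *T. washingtonensis* were not run. Over the filamentous libraries 7 members had under 100 reads in all, and the part of depth in the filamentous values of the other members was not tested.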
